A study of Mus musculus with 9 samples.

Results

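The response of mouse embryonic stem (ES) cells to a synthetic copy of the microRNA miR-294 was measured against mock transfection, gene by gene, with attention to genes and functions outside the published targets of the miR-290 family. The comparison used the 3 arrays labelled as miR-294 transfected and the 3 labelled as mock transfected, 6 of the 9 arrays in the series. All 9 samples were Dgcr8 -/- ES cells, kept without LIF and harvested 12 h after transfection with Dharmafect 1. Dgcr8 is a subunit of the nuclear microprocessor, and cells without it make almost no canonical microRNAs, so the mimic acts on a nearly empty background in both groups. Mimics were miRIDIAN duplexes at 50 nM. The series has no cells given an inert mimic, and what a duplex RNA does by its presence alone is therefore part of each difference from mock. For that reason the 3 let-7c arrays, from cells given another mimic at the same dose and time, are quoted beside part of the results. The labels name biological replicates but not separate ES cell clones. The p-values therefore set each difference only against the spread of these samples within groups, pooled over all 9 arrays.

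The array named 19938 genes through a probe set of their own, and 13182 of them (66.1%) were tested. The other 6756 were dim, which means that fewer than 3 arrays read above their own 40th percentile of 6.84 to 6.90. Values are the deposited levels, taken as log2, so a difference of 1 is a doubling of signal. Array medians lay between 7.36 and 7.41, and arrays of the same group correlated at 0.995 or more across the tested genes. A gene is called higher or lower here where the moderated test of limma gave an adjusted p (Benjamini-Hochberg over all tested genes) under 0.05. Arrays limit precision through their number, 3 in each group.

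A microRNA guides an Argonaute complex to messenger RNAs that pair with its seed, bases 2 to 8 of the mature strand, and the bound messages are translated less and degraded sooner. The miR-290 cluster supplies much of the microRNA of naive mouse ES cells and is known for supporting their fast cell cycle. Both mature sequences are shown because the seed (capitals) is what sets the mimics apart. RefSeq (GRCm38.p6) places mature miR-294-3p on the plus strand at chr7:3220691-3220712. Its seed is carried by 5 mature mouse names, of which miR-291a-3p is printed too. The labels give no arm for either mimic.
mmu-miR-294-3p: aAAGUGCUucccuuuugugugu
mmu-miR-291a-3p: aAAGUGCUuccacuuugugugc
mmu-let-7c-5p: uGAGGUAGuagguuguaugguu

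Falls reached further than rises. Of 13182 genes, 2735 (20.7%) were higher and 2786 (21.1%) lower with miR-294 than with mock, 41.9% in all. The counts were close only without a size limit. At 1.5-fold or more, 438 genes (3.32%) had fallen and 77 (0.584%) had risen. At 2-fold or more the counts were 93 (0.706%) and 4 (0.0303%), and at 3-fold 7 (0.0531%) and 0. All 3 miR-294 arrays lay below all mock arrays for 25.5% of tested genes and above them for 28.3%. Among called genes the furthest 1% of falls went beyond -1.24, while the furthest 1% of rises began at 0.69. The median over all tested genes was 0.02, and leaving out any single array of the 6 kept the 2-fold counts at 88 to 100 falls and 3 or 4 rises.

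**Figure D1:**
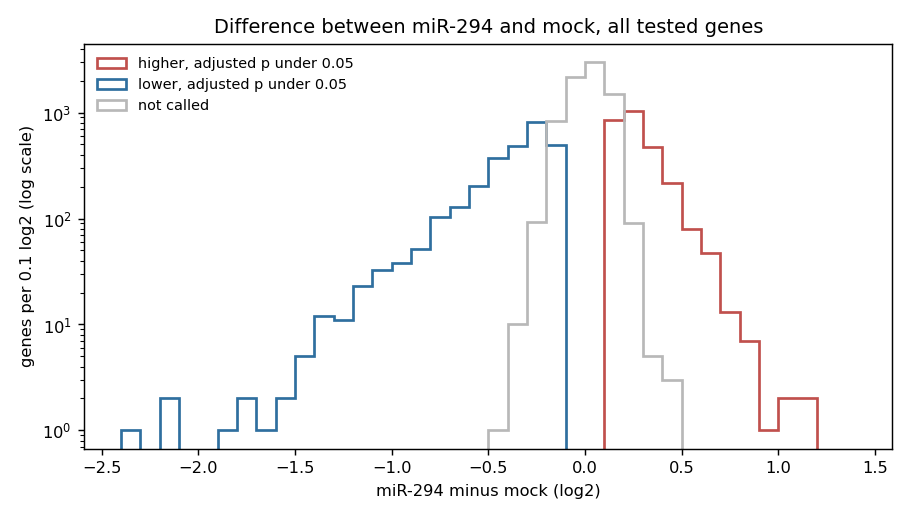
Histogram of the difference between miR-294 and mock (log2, bins of 0.1) for the 13182 tested genes, with the number of genes on a log scale; lines separate genes called lower, called higher and not called. The left tail runs past -2, with 93 genes at least 2-fold lower, while 4 genes are at least 2-fold higher.

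The share of genes that fell differed with the level of the gene in mock cells. When the tested genes were ordered by mock level and divided into 5 equal groups, 6.30% of the dimmest group were lower, then 17.3%, 26.7%, 30.6% and, in the brightest group, 24.8%. The shares higher moved less, from 14.5% to 25.1%. Among the 20 genes with the highest levels, 3 were called, and the differences of all 20 lay between -0.11 and 0.19. Dim probe sets read close to background, and the part of signal range in these shares was not tested.

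Large falls outside the published targets included genes of chromatin, membranes and mitochondria. Hp1bp3, a linker-histone-like protein of heterochromatin, read 9.72, 9.73 and 9.74 with miR-294 and 11.21, 11.16 and 11.27 with mock. The groups lay far apart, and the fall was 2.8-fold (difference -1.48 ± 0.05 SE, n = 3 and 3, limma adjusted p = 4.93e-09). Cdk19, a kinase of the Mediator complex, read 8.86, 8.63 and 8.52 against 10.04, 10.13 and 10.02, a difference of -1.39. Erbin, a scaffold protein that binds the receptor Erbb2, read 8.79, 8.71 and 8.63 against 10.05, 10.09 and 10.05, a difference of -1.35. These genes were drawn from those without overlap between miR-294 and mock arrays, so their separation follows from the choice. Each was also lower than with let-7c (differences of -1.53, -1.32 and -1.66). Erap1, which trims peptides for MHC class I molecules in the endoplasmic reticulum, fell by 1.47, with more spread among the mock arrays (8.57, 8.90 and 8.94) than among the miR-294 arrays (7.32, 7.28 and 7.41).

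Other large falls were those of Tmem87b (-1.41), a membrane protein of the Golgi, Mybl1 (-1.38), a transcription factor of the Myb family, Hivep2 (-1.37), a zinc finger factor, and Cenpq (-1.34), a kinetochore protein. All 4 were lower than with let-7c as well, with differences from -1.71 to -1.14. Lamp2, a glycoprotein of the lysosomal membrane, read 9.39, 9.26 and 9.23 with miR-294 and 10.65, 10.65 and 10.64 with mock, a difference of -1.35 ± 0.05. The related Lamp1, looked up after the fall of Lamp2 was seen, differed by -0.04 ± 0.05 (limma adjusted p = 0.575). Genes of cell-autonomous defence were among the falls too. Znfx1, an RNA helicase that senses viral RNA, fell by 1.22 and Gbp4, an interferon-inducible GTPase, was 2.3-fold lower. Gbp4 was higher with let-7c than with mock (9.16, 9.28 and 9.35 against 8.63, 8.88 and 8.91), so its difference between the mimics was larger, at -1.66.

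**Figure D2:**
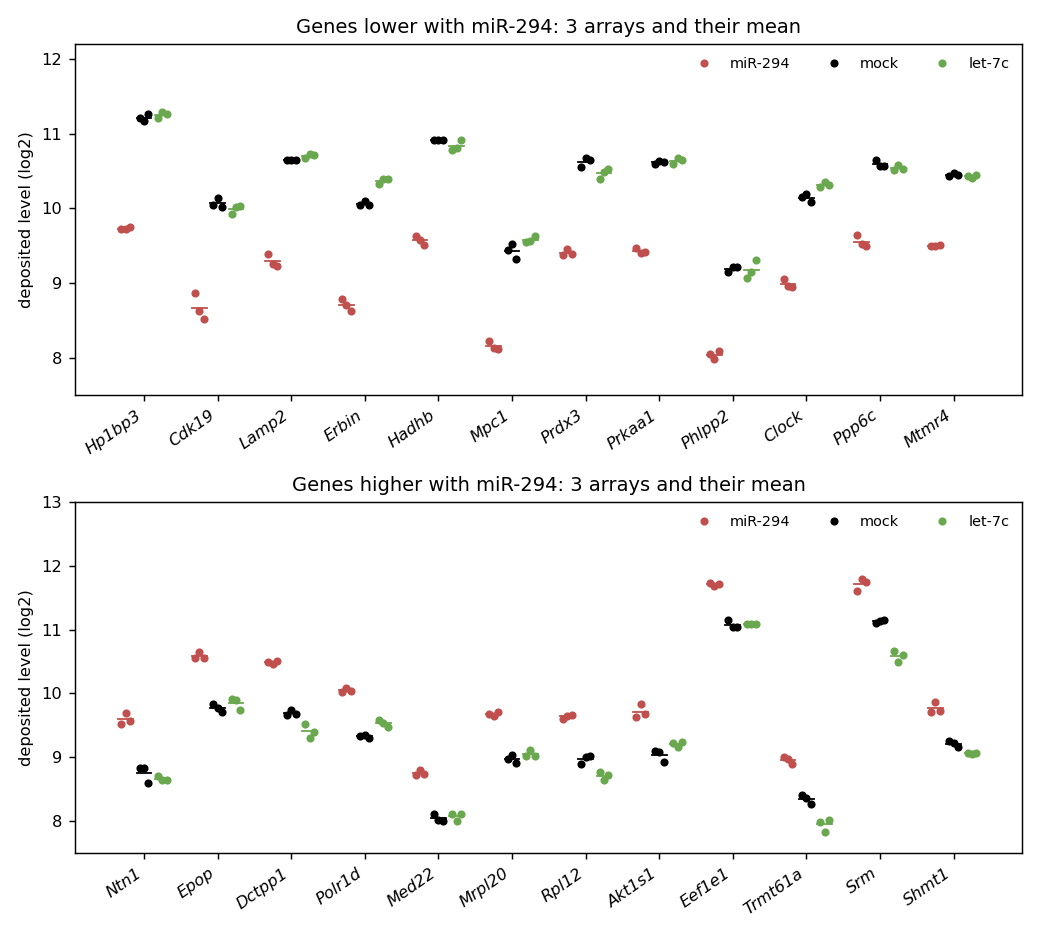
Deposited level (log2) of 12 genes that were lower (top) and 12 that were higher (bottom) with miR-294; dots are the 3 arrays of each group and short lines their mean. In every gene shown the miR-294 arrays lie apart from the mock arrays, which was a condition of choice for the largest falls and rises. The let-7c arrays lie near mock for Hp1bp3 and below it for Srm and Trmt61a.

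Large rises included a secreted guidance cue, a chromatin factor and an enzyme of the nucleotide pool. Ntn1, the secreted axon guidance cue netrin-1, read 9.52, 9.70 and 9.57 with miR-294 and 8.83, 8.83 and 8.59 with mock, a 1.8-fold rise (0.85 ± 0.07, limma adjusted p = 4.09e-06). Epop, a partner of Polycomb and Elongin in ES cells, read 10.56, 10.64 and 10.56 against 9.84, 9.78 and 9.71, a difference of 0.81. Dctpp1, a pyrophosphatase that cleans the nucleotide pool, read 10.49, 10.46 and 10.51 against 9.66, 9.75 and 9.67. Its difference was 0.79 against mock and 1.08 against let-7c. As with the large falls, only genes without overlap between miR-294 and mock arrays were eligible here. Zcchc10 (0.74), a zinc knuckle protein, and Fam136a (0.73), a mitochondrial protein, were also among the largest rises, and each rose more against let-7c (1.21 and 0.93). Probe sets annotated to the small nucleolar RNAs Snora74a (0.83), Snora75 (0.79) and Snora41 (0.73), guides of RNA pseudouridylation, were higher to a similar extent.

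Gene groups are described next by the share of their tested members that were called, to be read against 20.7% higher and 21.1% lower over all tested genes. The lists rest on general knowledge of each function but were chosen with earlier results of these data known. Several share members, and no test of a list was made.

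**Figure D3:**
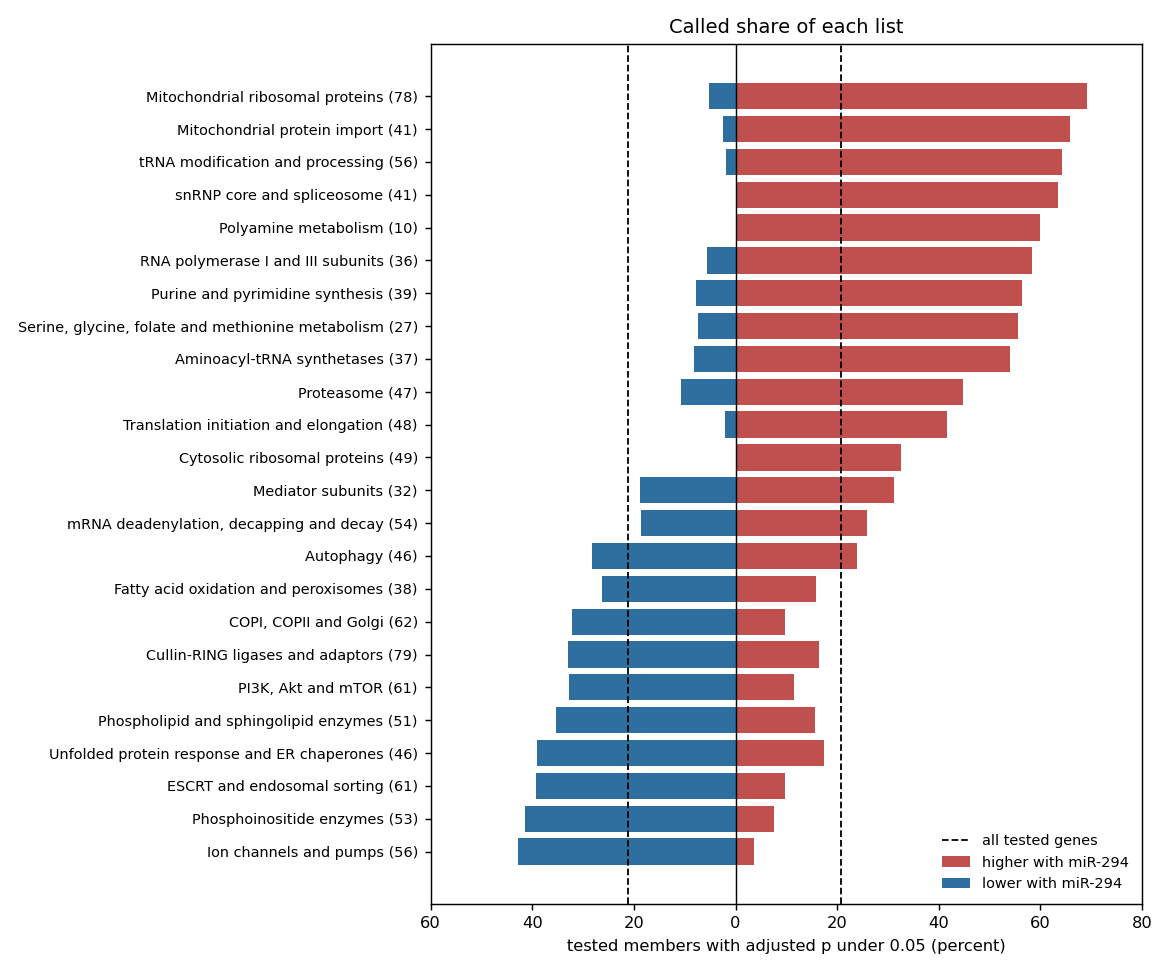
Percent of tested members called higher (right) or lower (left) with miR-294 than with mock in 24 lists, with the number tested in parentheses; dashed lines mark all tested genes (20.7% higher, 21.1% lower). Mitochondrial ribosomal proteins are at the top with 54 of 78 higher, and ion channels and pumps at the bottom with 24 of 56 lower.

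Actin filament proteins moved in both directions. Of 73 tested filament proteins 18 were lower and 9 higher, near the shares of all genes for falls. The published target Cfl2 is 1 of the 18. The other falls included Pfn2, a profilin that delivers actin monomers, which read 7.57, 7.48 and 7.65 with miR-294 and 8.75, 9.01 and 8.99 with mock (-1.35 ± 0.07). Twf1, the monomer-binding protein twinfilin, fell by 0.86, and a further probe set of the same gene gave -0.94. Pfn1 and Cfl1, the abundant profilin and cofilin, were not called and differed by 0.09 and 0.08. Of 7 tested subunits of the branching Arp2/3 complex 5 were higher, among them Arpc4 (0.47), Arpc1a (0.18) and Arpc2 (0.18). Arpc1b (0.10) and Arpc5 (-0.05) were not called. Among guidance receptors and their effectors, 13 of 34 tested genes were lower and 5 higher. Dpysl2, a tubulin-binding effector of semaphorin signalling, fell by 1.13, and the netrin receptor Neo1 by 0.60, while its ligand Ntn1 rose.

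Genes of Akt and mTOR signalling, which couples growth to nutrients, held large falls and a few rises. In the list of PI3K, Akt and mTOR genes, 20 of 61 tested genes were lower and 7 higher, and 8 falls reached 1.5-fold. The 20 include the published targets Pik3ca and Akt1. Prkaa1, a catalytic subunit of the energy sensor AMPK, read 9.47, 9.40 and 9.42 with miR-294 and 10.59, 10.63 and 10.62 with mock, a difference of -1.18 ± 0.04 (limma adjusted p = 1.9e-08). Phlpp2, a phosphatase that removes an activating phosphate from Akt, read 8.05, 7.98 and 8.08 against 9.14, 9.21 and 9.21. These values did not overlap, and the let-7c arrays of both genes lay with mock, at 10.59 to 10.67 and 9.06 to 9.30. The other AMPK catalytic subunit, Prkaa2, was lower by -0.48 but did not pass the test against let-7c (-0.06, limma adjusted p = 0.49), since its let-7c arrays were low too (8.60, 8.71 and 8.88 against 9.17, 9.12 and 9.15 with mock). The regulatory subunit Prkab1 rose by 0.22.

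Components of the mTOR complexes moved in opposite directions. Rictor, the defining subunit of mTOR complex 2, read 9.86, 9.73 and 9.68 with miR-294 and 10.55, 10.55 and 10.54 with mock, a difference of -0.79. Rptor, its counterpart in complex 1, was higher by 0.25 (9.89, 9.97 and 9.98 against 9.64, 9.81 and 9.65). Akt1s1, an inhibitory component of complex 1, read 9.63, 9.83 and 9.67 against 9.10, 9.08 and 8.93, a difference of 0.67. Each gene's arrays kept apart between the groups. Mtor itself differed by 0.03 and was not called. Rragd, a Rag GTPase that brings complex 1 to the lysosome, fell by 0.99, while Lamtor4, part of its lysosomal anchor, rose by 0.33. The kinase genes Rps6ka3 (-0.80) and Pik3cb (-0.63) were also lower.

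Enzymes that make and remove phosphoinositides, the lipids that mark membrane compartments, showed 22 of 53 tested genes lower and 4 higher. Among its 11 tested myotubularins, a phosphatase family counted after its values were seen, 7 were lower and 0 higher. Mtmr4 read 9.49, 9.50 and 9.50 with miR-294 and 10.43, 10.47 and 10.45 with mock (-0.95 ± 0.04). Mtm1 (-0.62) and Mtmr3 (-0.57) were lower as well, while Mtmr2 (0.10) was not called. Pip4k2a, a kinase acting on phosphatidylinositol 5-phosphate, fell by 0.68, whereas its paralogue Pip4k2b rose by 0.56. The same contrast held against let-7c, with -0.85 for Pip4k2a and 0.73 for Pip4k2b.

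**Figure D4:**
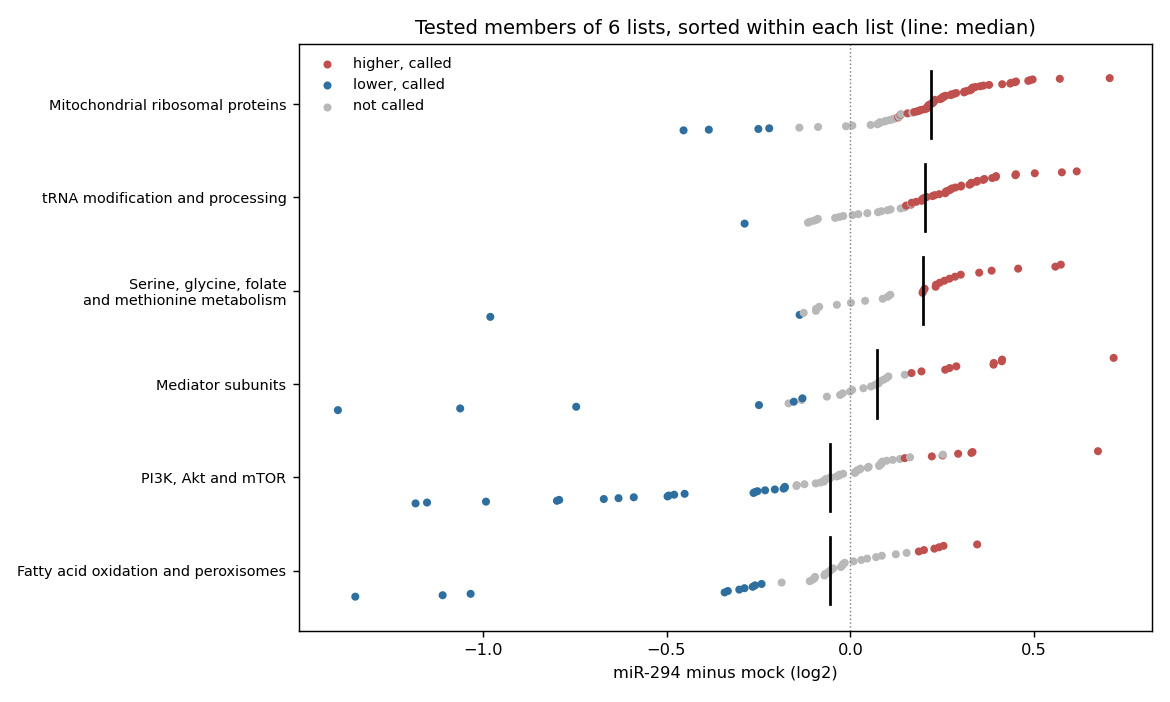
Difference between miR-294 and mock (log2) of each tested member in 6 lists, sorted within a list; colours show the call and vertical lines the median. Mitochondrial ribosomal proteins have a median of 0.22, while the Mediator, PI3K and fatty acid lists have medians near 0 with single members below -1.

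Endosomal and secretory membranes held more falls than rises. Of 61 tested genes of ESCRT and endosomal sorting, 24 were lower and 6 higher, 1 of the 24 (Rab11fip5) being a published target. Stam2, which hands ubiquitinated receptors to the ESCRT machinery, read 9.66, 9.63 and 9.61 with miR-294 and 10.50, 10.59 and 10.58 with mock (-0.92 ± 0.05). Rab5b (-0.56) and its effector Eea1 (-0.55), which direct fusion of early endosomes, and the retromer subunit Vps26a (-0.58) were lower. The paralogue Vps26b rose by 0.20. In the COPI, COPII and Golgi list 20 of 62 were lower and 6 higher, led by the golgins Golga1 (-0.88) and Golga2 (-0.76) and by the cargo receptor Tmed2 (-0.83, with -0.85 and -0.80 at its other probe sets). SNAREs, clathrin adaptors and exocyst genes gave 19 of 61 lower and 12 higher. There the exocyst subunit Exoc1 fell by 0.60, and the SNARE Ykt6 rose by 0.52.

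Ion channels and pumps had 24 of 56 tested genes lower and 2 higher. Clic1, a chloride intracellular channel protein, read 9.53, 9.28 and 9.16 with miR-294 and 10.39, 10.32 and 10.35 with mock (-1.03 ± 0.08), and the copper pump Atp7a fell by 0.76. Kcnk5, a potassium channel, rose by 0.44. This count leaned on mock replicate 2: without it, 13 channel genes were lower. Genes of the unfolded protein response and chaperones of the endoplasmic reticulum were lower in 18 of 46 and higher in 8. Without mock replicate 2 the first count was 11. Os9, a lectin that selects misfolded glycoproteins for degradation, read 8.72, 8.77 and 8.65 against 9.86, 9.78 and 9.73 (-1.08 ± 0.05). Dnajb9, a chaperone of the same compartment, fell by 0.98 against mock and by 0.55 against let-7c, whose arrays were also below mock (8.60, 8.87 and 8.83 against 9.13, 9.39 and 9.07). The largest rises of the list were those of Trib3 (0.61), a pseudokinase, and the transcription factor Atf4 (0.35).

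Enzymes of membrane lipids leaned towards falls. Of 51 phospholipid and sphingolipid enzymes, 18 were lower and 8 higher. Pcyt1a, the rate-setting enzyme of phosphatidylcholine synthesis, read 8.27, 8.38 and 8.42 with miR-294 and 9.21, 9.49 and 9.32 with mock (-0.99 ± 0.07). Lpin1, a phosphatidate phosphatase, fell by 0.95 and the sphingomyelin synthase Sgms1 by 0.64. Pisd, the mitochondrial enzyme of phosphatidylethanolamine synthesis, rose by 0.45.

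In fatty acid oxidation a few falls were large. Of 38 tested genes of fatty acid oxidation and peroxisomes 10 were lower and 6 higher, close to the shares of all genes. Of these falls 3 reached 1.5-fold. Hadhb, the beta subunit of the mitochondrial trifunctional protein, read 9.63, 9.58 and 9.50 with miR-294 and 10.92, 10.92 and 10.91 with mock (-1.35 ± 0.05, limma adjusted p = 2.21e-08), and its other probe set gave the same size. Hadha, the alpha subunit of the same enzyme, was chosen after its values were seen and was not called (-0.11 ± 0.06, limma adjusted p = 0.141), though it passed without miR-294 replicate 1 (-0.16, limma adjusted p = 0.0483). Cpt1a, which commits fatty acids to mitochondrial import, fell by 1.03 and Eci2, an isomerase of unsaturated fatty acids, by 1.11. Mpc1, a subunit of the mitochondrial pyruvate carrier, read 8.22, 8.13 and 8.12 against 9.44, 9.52 and 9.33, a difference of -1.27. Prdx3, the peroxiredoxin of the mitochondrial matrix, read 9.37, 9.45 and 9.39 against 10.55, 10.67 and 10.64. The miR-294 arrays of both genes were below all mock and let-7c arrays. The relatives Prdx1 and Prdx2, of the cytosol, differed by -0.06 and -0.05 and were not called. Mfn2, which fuses mitochondria, fell by 0.93 and its paralogue Mfn1 by 0.22.

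The catalytic subunit of protein phosphatase PP6 fell, as did some of its regulatory subunits. Ppp6c, the catalytic subunit, read 9.64, 9.52 and 9.50 with miR-294 and 10.64, 10.57 and 10.57 with mock (-1.04 ± 0.05), and the ankyrin repeat subunits Ankrd52 and Ankrd44 differed by -1.80 and -0.46. Ankrd28, Ppp6r1, Ppp6r2 and Ppp6r3, looked up after the falls were seen, were not called, with differences of -0.11, 0.08, -0.0048 and -0.03 (limma adjusted p = 0.0542, 0.193, 0.946 and 0.63). The wider list of PP1, PP2A, PP4 and PP6 genes, with 14 of 66 lower and 10 higher, did not stand apart from the shares of all genes.

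Ubiquitin ligases leaned towards falls. Of 79 genes of cullin-RING ligases 26 were lower and 13 higher, with Klhl28 (-1.08) and Asb8 (-0.92), adaptors that bring substrates to cullins, far below the rest. The published target Fbxl5 is 1 of the 26. Keap1, the adaptor that holds the antioxidant factor Nrf2 in check, fell by 0.42. Among HECT and other RING ligases 21 of 70 were lower and 12 higher. The proteasome moved the other way, with 21 of 47 tested genes higher and 5 lower. Its rises were small, such as the assembly chaperones Psmg1 (0.33) and Pomp (0.28), and without mock replicate 1 the count was 13. The interferon-inducible activator subunits Psme1 (-0.27) and Psme2 (-0.40) were among the 5 falls.

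Genes of mitochondrial biogenesis were called higher more often than all tested genes, most of them by small amounts. Mitochondrial ribosomal proteins, encoded in the nucleus and needed to translate the organelle's own messages, were higher in 54 of 78 tested genes and lower in 4, with a median of 0.22. Mrpl20 read 9.67, 9.65 and 9.71 with miR-294 and 8.97, 9.04 and 8.91 with mock (0.71 ± 0.05, limma adjusted p = 1.48e-06). Mrpl11 (0.57), Mrpl12 (0.50) and Mrpl49 (0.49) followed. The arrays of Mrpl32, an exception, were 8.61, 8.55 and 8.51 against 8.98, 9.05 and 9.00 (-0.45), and Mrpl30 fell by 0.38. Import proteins were higher in 27 of 41 and lower in 1, and 2 rises reached 1.5-fold. Tomm5, a small subunit of the outer membrane translocase, rose by 1.16. The small Tim chaperones of the intermembrane space included Timm8a1 (0.85, with 0.83 at its other probe set), Timm10 (0.45), Timm8b (0.39), Timm9 (0.39) and Timm13 (0.36). Agk, a lipid kinase that is also a subunit of the inner membrane translocase, was the single fall (-0.34). Against let-7c the counts were 60 higher and 3 lower of the ribosomal proteins and 29 and 1 of the import proteins.

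Assembly factors of the respiratory chain were higher in 18 of 43 and lower in 2. Tmem126a and Tmem126b, neighbouring relatives that both take part in assembly of complex I, went in opposite directions. Tmem126a read 9.72, 9.68 and 9.60 with miR-294 and 9.24, 9.16 and 9.13 with mock, a rise of 0.49. Tmem126b read 9.21, 9.14 and 9.09 against 9.85, 9.87 and 9.80, a difference of -0.69. Both differences kept their sign against let-7c (0.29 and -1.01). Genes that copy and express mitochondrial DNA were higher in 13 of 42 and lower in 5, with the helicase Twnk (0.48) and the single-strand binding protein Ssbp1 (0.49) highest and the transcription factor Tfb2m lowest (-0.37).

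Messages for enzymes that make and modify transfer RNA were often higher too. Those for modification and processing enzymes were higher in 36 of 56 and lower in 1 (Ftsj1, -0.29), with a median of 0.20. Both subunits of the methyltransferase that puts 1-methyladenosine in the T loop rose: Trmt61a read 9.00, 8.98 and 8.89 with miR-294 and 8.40, 8.36 and 8.26 with mock (0.62 ± 0.06), and Trmt6 was higher by 0.40. The same held for the 7-methylguanosine methyltransferase, with Mettl1 and Wdr4 each at 0.45. Aminoacyl-tRNA synthetases, which charge transfer RNA with amino acids, were higher in 20 of 37 and lower in 3. Yars, the tyrosyl enzyme, was at 0.53, and the scaffold Aimp2 at 0.31. RNA polymerases I and III, which make ribosomal and transfer RNA, were higher in 21 of 36 and lower in 2. Polr1d, a subunit shared by both polymerases, read 10.03, 10.09 and 10.03 against 9.34, 9.35 and 9.30 (0.72 ± 0.04), and its other probe set gave 0.56. Polr3gl, the paralogue of the stem cell subunit Polr3g, was lower by -0.23 and did not pass against let-7c (-0.08).

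The translation machinery proper followed with smaller shares. Initiation and elongation factors were higher in 20 of 48 and lower in 1. Eef1e1, a factor of the synthetase complex, read 11.73, 11.69 and 11.72 with miR-294 and 11.15, 11.04 and 11.04 with mock (0.64 ± 0.04), and the ribosome anti-association factor Eif6 was higher by 0.51. Eif4ebp1 (0.43) and Eif4ebp2 (0.49), which repress cap-dependent initiation when unphosphorylated, rose too. Cytosolic ribosomal proteins were higher in 16 of 49 and lower in 0. Rpl12 had the largest rise, 0.67, against a median of 0.07 over the list. With each of miR-294 replicate 1, miR-294 replicate 2 and mock replicate 3 left out, 9, 8 and 8 were higher. Proteins of the spliceosome core were higher in 26 of 41 and lower in 0, with Sf3b5 (0.51) and Gemin6 (0.48), a factor of snRNP assembly, at the top.

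Enzymes that supply these processes were often higher. Purine and pyrimidine synthesis had 22 of 39 genes higher and 3 lower. Dhodh, the mitochondrial step of pyrimidine synthesis, read 8.79, 8.88 and 8.80 with miR-294 and 8.24, 8.23 and 8.26 with mock (0.58 ± 0.05), and Prps1, which makes the ribose phosphate donor, rose by 0.51. The paralogues Ctps and Ctps2, which make CTP, went apart, at 0.23 and -0.28. In serine, glycine, folate and methionine metabolism 15 of 27 were higher and 2 lower. Shmt1 (0.56) and Shmt2 (0.38), which pass carbon from serine to folate, and Psph (0.46), the last step of serine synthesis, rose. Mthfd2, the mitochondrial folate enzyme, rose by 0.57 ± 0.13, and its arrays varied within each group in parallel (10.90, 10.49 and 10.59 against 10.35, 9.91 and 10.01). Mat2b, the regulatory subunit of methionine adenosyltransferase, was the large exception. Its arrays averaged 10.01 ± 0.03 against 10.99 ± 0.03 (SD, n = 3), a difference of -0.98 ± 0.05. Of 10 genes of polyamine metabolism 6 were higher and 0 lower. Against let-7c 5 of them were higher and 2 lower, where all tested genes had 24.5% higher and 26.2% lower. Srm, spermidine synthase, read 11.60, 11.80 and 11.75 against 11.11, 11.14 and 11.15 (0.58 ± 0.06), and Odc1, the entry enzyme, 12.26, 12.35 and 12.34 against 11.94, 12.03 and 11.95 (0.34 ± 0.06).

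Lists of transcription complexes each held 3 falls of 1.5-fold or more. Mediator subunits were higher in 10 of 32, lower in 6 and not called in 16, with a median of 0.07. Med28 read 8.95, 9.13 and 9.02 with miR-294 and 10.10, 10.16 and 10.03 with mock (-1.06 ± 0.06), and Med22 averaged 8.76 ± 0.05 against 8.04 ± 0.06 (SD, n = 3), a difference of 0.72. Cdk8, the paralogue of Cdk19 in the kinase module, was higher by 0.19. Med6 was lower by -0.75, but not against let-7c (-0.06, limma adjusted p = 0.43), whose arrays of 9.64, 9.78 and 9.78 lay with miR-294 rather than with mock at 10.39, 10.45 and 10.42. Taf5l, of the SAGA coactivator, showed the same pattern, with -0.67 against mock and 0.16 against let-7c (limma adjusted p = 0.081). In TFIID, SAGA and basal factors 16 of 41 were higher, 6 lower and 19 not called, with a median of 0.05. Taf9b, a histone-fold subunit of TFIID, had the largest fall of the list, reading 6.30, 6.24 and 6.35 with miR-294 and 7.99, 8.09 and 8.15 with mock (-1.78 ± 0.06). Its miR-294 arrays lay below the 40th percentile. The acetyltransferase Kat2b fell by 0.83, and Sgf29, a reader of histone methylation, rose by 0.49.

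Messenger RNA decay, the route by which microRNAs themselves act, was near the background as a whole, with 14 of 54 higher and 10 lower. The deadenylase subunits of the Ccr4-Not complex differed from each other. Cnot6 read 10.37, 10.49 and 10.46 with miR-294 and 11.29, 11.38 and 11.27 with mock (-0.87 ± 0.06), and its paralogue Cnot6l fell by 0.64. Cnot7 and Cnot8, the other deadenylase pair, were not called (-0.10 and 0.11) and were added after their values were seen. The decapping enzyme Dcp2 fell by 0.52, and the published targets Tob1 and Btg2 make up a further part of the 10.

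Genes of the circadian clock and of glucocorticoid feedback, counted together, moved in both directions, with 7 of 25 lower and 8 higher. Clock, a member of the activating pair of the circadian clock, read 9.05, 8.95 and 8.95 with miR-294 and 10.15, 10.19 and 10.08 with mock (-1.16 ± 0.05, limma adjusted p = 3.64e-08). Its partner Arntl was higher by 0.27. The repressors parted in the same way, with Cry2 at -0.55 and Cry1 at 0.27. Notch, Hedgehog and cilia genes were lower in 24 of 65 and higher in 10, with the Hedgehog effector Gli3 at -0.51 and the cilium protein Ttc8 at -0.67. Of 47 tested genes of NF-kappaB, TNF and interleukin signalling 11 were lower and 3 higher. Antioxidant genes of the glutathione and thioredoxin systems were near the background against mock, with 12 of 46 lower and 10 higher. Against let-7c 19 of the 46 were lower and 12 higher, where all tested genes had 26.2% lower and 24.5% higher.

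Markers of the labelled cell type were present and changed little. Of 11 ES cell markers 4 were higher and 0 lower: Esrrb (0.24), Tdgf1 (0.23), Utf1 (0.22) and Zfp42 (0.21). Markers of feeder fibroblasts, whose presence the labels do not mention, were dim for 4 of 10 genes, Dcn, Lum, Postn and S100a4. Col3a1 was the only call among the other 6 (7.49, 7.48 and 7.60 against 7.36, 7.36 and 7.36), and with the replicate number as a block 4 of the 6 were called higher. That call was lost when any mock array was left out (limma adjusted p of 0.0799 to 0.0862). Each list of another lineage had 1 marker called higher and 0 lower. The numbers tested were 6 for primitive endoderm, 5 for trophoblast, 5 for neurectoderm and 3 for mesendoderm. Over all tested genes 20.7% were higher, so these single calls set no lineage apart. Among them Sox7 rose by 0.36 and Eomes, listed for both trophoblast and mesendoderm, by 0.35, each from a low level. The Eomes arrays of let-7c, 7.81, 7.97 and 7.93, were as high as those of miR-294. Bulk RNA cannot tell more cells of a type from more RNA per cell.

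Of 742 genes with several tested probe sets, 9 had probe sets called in opposite directions. Tapt1, a membrane protein tied to cilia, had a probe set at 8.75, 8.74 and 8.87 with miR-294 and 9.68, 9.72 and 9.63 with mock (-0.89 ± 0.05), and another at 10.06, 9.89 and 9.96 against 9.78, 9.71 and 9.88 (0.18 ± 0.06). Map3k12, a neuronal kinase, was at -0.50 on the one and 0.31 on the other. Camta1, a calmodulin-binding transcription factor, was at -0.44 and 0.20, and the rise was not called without mock replicate 2 (limma adjusted p = 0.0659). The others were A530032D15Rik, Atp6v0a2, Coq10a, Dip2c, Fbxo31 and Tor1aip2. The exons covered by each probe set were not used here, so transcript isoforms could not be compared.

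**Figure D5:**
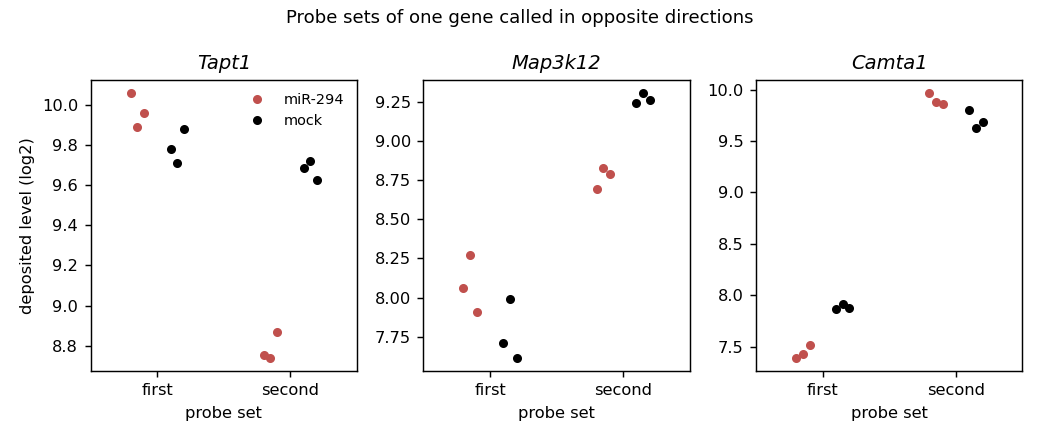
Deposited level (log2) at the probe sets of 3 genes whose probe sets were called in opposite directions; dots are the 3 arrays of miR-294 and of mock. In Tapt1 the second probe set is lower with miR-294 by 0.89 while the first is higher by 0.18.

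Promoters of the rising genes were searched for short motifs, because the mitochondrial groups rose together. RefSeq promoters of GRCm38.p6, from 250 bases before to 50 after each start, were found for 10406 of the tested genes and were read on both strands. The E-box CACGTG was present in 8.09% of all promoters, 11.7% of tested genes, 15.1% of genes called higher and 12.1% of genes called lower. For the ETS motif CCGGAAGT the shares were 4.31%, 8.30%, 12.1% and 7.59%. Among genes called at 1.5-fold or more, the E-box share did not differ by direction. It was 14.5% of those higher (8 of 55) and 14.6% of those lower (52 of 356). The ETS shares there were 16.4% (9 of 55) and 8.43% (30 of 356). Of the mitochondrial ribosomal proteins with a promoter, 12 of 68 (17.6%) held the ETS motif and 5 of 68 (7.35%) the E-box. The E-box share of the ribosomal proteins was below that of tested genes. Of the import proteins 7 of 36 (19.4%) held the ETS motif and 5 of 36 (13.9%) the E-box. The ETS share was not particular to mitochondrial lists. Of tRNA modification and processing genes 8 of 50 (16%) held the ETS motif and 8 of 50 (16%) the E-box. For the spliceosome core the counts were 5 of 35 (14.3%) and 2 of 35 (5.71%). More motifs were searched than are given here. The YY1 motif was in 1.66% of tested genes, 1.96% of those called higher and 1.72% of those called lower. It was in 5 of 68 ribosomal (7.35%) and 3 of 36 import promoters (8.33%). The NRF1 motif, in 2.19% of tested genes, was in 3 of 68 ribosomal (4.41%) and 0 of 36 import promoters. The GC box GGGCGG, found in 67.5% of tested genes, was in 66.5% of those called higher and 75.7% of those called lower. A match describes letters in a window and is no sign of binding.

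Below are the 250 bases before the start of 3 mitochondrial ribosomal genes that rose. They were chosen to show the E-box and the ETS motif alone and side by side (capitals, positions counted back from the start). Mrpl20 has an E-box at -33, in chr4:155802628-155802877 on the plus strand. Mrpl18, higher by 0.48, has an ETS motif at -240, in chr17:12916092-12916341 on the minus strand. Mrps18c, higher by 0.32, has an E-box at -163 followed directly by an ETS motif, which lies on the other strand, at -157, in chr5:100798509-100798758 on the plus strand.
Mrpl20: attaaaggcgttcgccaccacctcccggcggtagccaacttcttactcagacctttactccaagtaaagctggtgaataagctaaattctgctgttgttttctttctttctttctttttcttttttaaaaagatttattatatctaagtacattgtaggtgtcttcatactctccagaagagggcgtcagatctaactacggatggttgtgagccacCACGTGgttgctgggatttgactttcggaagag
Mrpl18: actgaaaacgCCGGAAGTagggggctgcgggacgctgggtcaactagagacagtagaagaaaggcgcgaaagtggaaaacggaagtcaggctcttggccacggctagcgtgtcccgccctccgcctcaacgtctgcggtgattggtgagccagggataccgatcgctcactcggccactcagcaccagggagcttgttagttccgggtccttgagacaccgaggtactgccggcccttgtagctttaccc
Mrps18c: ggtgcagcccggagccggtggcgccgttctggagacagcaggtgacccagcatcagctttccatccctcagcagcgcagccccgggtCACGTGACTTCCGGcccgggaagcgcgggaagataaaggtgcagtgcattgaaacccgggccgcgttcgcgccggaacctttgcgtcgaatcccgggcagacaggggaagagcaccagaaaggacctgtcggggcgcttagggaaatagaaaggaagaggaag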

How the data were processed

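The authors deposited one value per probe set and array, made with GCRMA, per the submitters' processing notes, from biotin-labelled total RNA (Trizol, per the labels' protocols). No version or setting is given, and the deposited values are taken as log2 from their range and medians. GCRMA can shrink signals near background, so differences of dim genes may be understated, which was not tested. Of 35557 probe sets, 21789 had 1 gene symbol, 1621 several and 12147 none in the platform annotation, and only the first kind was used. Symbols were matched by gene ID to RefSeq for 21698 probe sets. The probe set with the highest mean stood for a gene with several. Genes with at least 3 arrays above their own 40th percentile were tested with limma 3.58.1 in R 4.3.3, with all 9 arrays in the fit, 3 per group, and Benjamini-Hochberg adjustment; the code was tested on simulated data.

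The labels do not say whether replicate numbers pair the samples. Deviations from the group means correlated at 0.36, 0.27 and 0.28 between same-numbered miR-294 and mock arrays. Arrays with different numbers were not compared. A fit with the replicate number as a block was therefore run beside the unpaired one, which gave the main counts and p-values. Alternatives were that block, the 6 arrays alone, no filter, a filter at the 60th percentile, the mean of probe sets, every probe set, quantile normalization, centring on the 75th percentile, a trend with robust prior, and leaving out each array.

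Genes were drawn from a pool set by rule: the 30 largest falls and 20 largest rises without overlap between groups (genes with clone or predicted names not counted), up to 6 called genes per list and direction, markers, and genes with opposed probe sets, all without published targets. Not every gene of the pool is described, and the choice within it was made with values known. Partners of a named gene were added after their values were seen, as the text says. The members and lists were chosen with earlier results of these data known. Sequences come from RefSeq (GRCm38.p6). A list of genes is not reported here.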

Additional observations from a re-analysis of the deposited data

How the results depend on the processing

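Over the 15 alternatives the genes higher with miR-294 numbered 2172 to 3305 and the genes lower 2333 to 3096. With the replicate block the counts were 3089 and 3096. The block took away the call of no gene named in the text. Several list counts moved by more than 1.5 times with it. Purine and pyrimidine synthesis genes lower went to 5, translation factors lower to 2 and feeder markers higher to 4. Primitive endoderm markers higher went from 1 to 2, and trophoblast markers from 1 to 2 higher and from 0 to 1 lower. Leaving out 1 array at a time gave 13 to 20 channels and pumps and 11 to 17 unfolded protein response and chaperone genes lower. It gave 13 to 21 proteasome genes and 8 to 12 cytosolic ribosomal proteins higher. In lists with few calls in a direction it gave 1 or 2 tRNA modification enzymes lower, 1 or 2 subunits of RNA polymerases I and III lower, 1 enzyme of serine and folate metabolism lower, 2 to 3 phosphoinositide enzymes higher, 0 or 1 translation factors lower, 3 to 5 genes of mitochondrial DNA lower, 2 to 3 proteasome genes lower, 5 to 7 phospholipid and sphingolipid enzymes higher, 2 to 5 guidance genes higher and 0 or 1 feeder markers higher. Without the filter on dim genes, 9 cytosolic ribosomal proteins were higher, 1 gene of serine and folate metabolism, 3 of mitochondrial DNA and 2 of the proteasome were lower, and 0 feeder markers were higher. With the filter at the 60th percentile, 5 purine and pyrimidine genes were lower, and 1 channel gene, 1 guidance gene, 1 gene of NF-kappaB signalling and 0 feeder markers were higher. Quantile normalization gave 1 serine and folate gene lower and 5 NF-kappaB genes higher. Centring on the 75th percentile gave 1 and 6 for the same lists, 3 genes of mitochondrial DNA lower, 4 channel genes higher and 11 genes of COPI, COPII and Golgi higher. The trend with robust prior gave 0 feeder markers higher. Markers of the lineages other than ES cells and feeders were counted anew only with the block. All other list counts printed in the report stayed within 1.5 times under the alternatives that tested lists.

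Averaging a gene's probe sets turned the sign for A530032D15Rik (-0.0612), Atp6v0a2 (0.10), Camta1 (-0.0284), Dip2c (-0.0761), Tapt1 (-0.35) and Tor1aip2 (0.14), whose probe sets were called in opposite directions, and for Cnot8 (-0.0255), which was not called. Of the other uncalled genes, Arpc5 ranged from -0.0927 to 0.0178 with 1 array left out and Ppp6r2 from -0.0339 to 0.0210. Ppp6r2 was at 0.0055 with quantile normalization and at 0.0204 with centring. Of 177 tested genes named in the text, 158 kept direction and call under every alternative that tested them. The cause of the count shifts was not tested. Signals near background limit what can be said of dim genes, and 3 arrays per group limit the rest.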
